A study of Mus musculus with 2 samples.

Results

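Dendritic cells of the thymus carry self-antigens to developing thymocytes, and part of what they present is taken over from medullary thymic epithelial cells. They comprise conventional type 1 cells (cDC1), which read chemokine and dead-cell signals through Xcr1 and Clec9a, conventional type 2 cells (cDC2), which carry Sirpa, and plasmacytoid cells (pDC), which carry Siglech. Signals through the growth factor receptor Flt3 support their development, the transcription factors Irf8 and Batf3 are needed for cDC1, and the transcription factor Zbtb46 marks the conventional cells. Medullary epithelial cells make Xcl1, the ligand of Xcr1, which draws dendritic cells into the medulla.

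These 9 genes (Itgax, Xcr1, Clec9a, Flt3, Zbtb46, Irf8, Batf3, Sirpa and Siglech) were taken by symbol from the 23003 genes of the deposited counts, each represented by the RefSeq transcript whose reads in Clp1 knockdown plus Ctr were highest. They were measured in mTEChi, the medullary thymic epithelial cells with high MHC class II, a population that was sorted as CD45-negative with low or intermediate Ly51 after bead depletion of CD45-positive thymocytes. The gate was therefore set to leave dendritic cells out, and the values below are of transcripts of these genes in an epithelial sort. Whether they came from dendritic cells, from other cells or from the mTEChi themselves was not tested. Both libraries came from 1 lentigenic mouse made from B6 oocytes, in which the doxycycline-dependent TRE3G promoter drove a cluster of hairpin RNAs against Clp1 together with the ZsGreen reporter, and the EF1 promoter drove the TetOn3G activator. Doxycycline was given in the food (2 g/kg) over 2 weeks, starting at an age of 3 weeks, so both cell fractions came from the same transgenic, drug-fed animal. The Clp1 knockdown library was made from the GFP+ mTEChi, and the GFP- mTEChi of that mouse served as the control (Ctr).

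Each group was 1 library, so differences are between these 2 libraries, have no replicate check and carry no p-value. Counts summed over all transcripts were 37524730 in the Clp1 knockdown library and 28464803 in the Ctr library. These sums hold reads of exons shared between transcripts repeatedly, so they exceed the number of reads. With 1 transcript per gene the sums were 26734562 in Clp1 knockdown and 20108666 in Ctr. Reads were scaled by size factors of 1.14 (Clp1 knockdown) and 0.877 (Ctr). Ratios are log2 values of Clp1 knockdown over Ctr, with exact Clopper-Pearson 95% intervals that cover counting error only, since amplified reads without molecular identifiers do not count molecules. A gene was called lower or higher with at least 10 reads over both libraries, a ratio of 2-fold or more and an interval that excluded 0. Clp1 itself had 812 reads in the Clp1 knockdown library and 1573 in Ctr, a log2 ratio of -1.33 (-1.46 to -1.21). Of 14 mTEChi marker genes, 4 were called higher in the Clp1 knockdown library and 1 lower. They included Aire, the regulator of tissue antigens, at 8264 reads in Clp1 knockdown and 7462 in Ctr (log2 ratio -0.23), and the epithelial adhesion molecule Epcam at 26108 reads in Clp1 knockdown and 7928 in Ctr (1.34). Cd86, a costimulatory ligand that dendritic cells also carry, was the gene called lower (-1.01), but not with reads summed over transcript parts (-0.99). With reads beyond the most proximal poly(A) site left out, its ratio was -0.48 (-0.66 to -0.31), and it was not called either. H2-Ab1, an MHC class II chain, had the most reads of these markers and a log2 ratio of -0.03. Ptprc, which encodes CD45, was present in both libraries, with 1050 reads in Clp1 knockdown and 1987 in Ctr.

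All 9 genes had at least 10 reads. Of them, 5 were called lower in the Clp1 knockdown library (Itgax, Clec9a, Sirpa, Batf3 and Flt3), 1 was called higher (Xcr1), and 3 were not called (Zbtb46, Irf8 and Siglech). Of all 18543 genes with as many reads, 19.7% were called lower and 21.9% higher. The median log2 ratio was -1.66 over the 9 genes and 0.03 over all genes. In bulk RNA, fewer cells of a type and less RNA per cell cannot be told apart. Of the 9 ratios, 8 were below 0, although that of Irf8 became 0.09 when a trend of the ratio on GC content was subtracted.

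**Figure D1:**
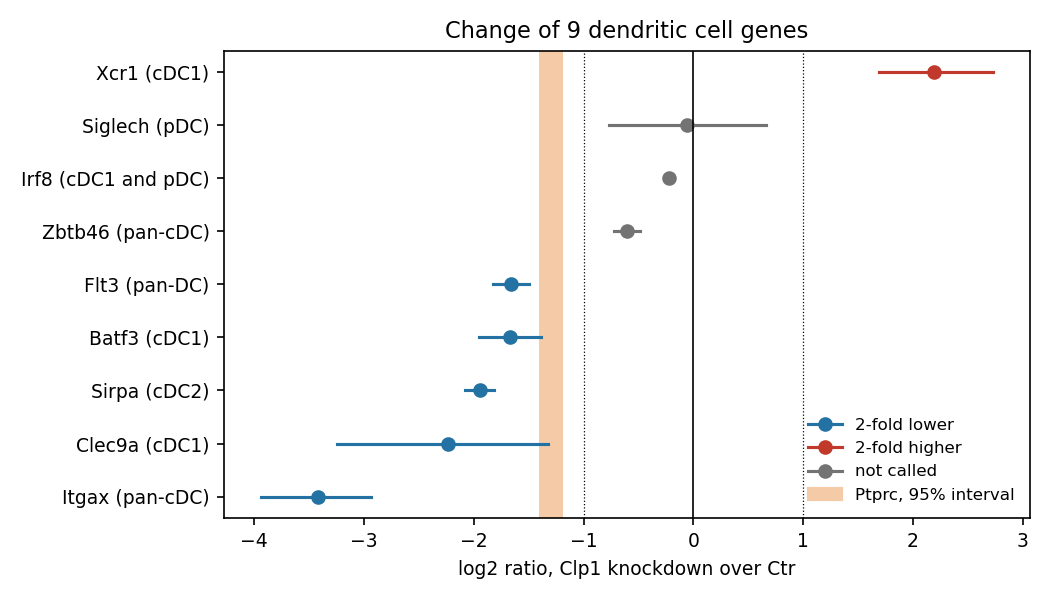
Log2 ratio of Clp1 knockdown over Ctr (x axis) for each of the 9 dendritic cell genes, with bars for the 95% counting interval, dotted lines at 2-fold and a shaded band for the interval of Ptprc. The ratios run from -3.42 for Itgax to 2.19 for Xcr1, and only Xcr1 lies to the right of 0.

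The pan-dendritic genes differed widely among themselves. Itgax (NM_021334; mm9 chromosome 7, 135273061 to 135294171, plus strand) encodes CD11c, the integrin subunit by which dendritic cells are usually gated. It had 39 reads in the Clp1 knockdown library and 321 in Ctr, or 8.50 scaled reads per kb (6.04 to 11.6) in Clp1 knockdown against 90.9 (81.3 to 101) in Ctr. The Ctr level was 10.7-fold the Clp1 knockdown level, the largest difference among the 9 genes. Flt3 (NM_010229; chromosome 5, 148142317 to 148212065, minus strand), the receptor tyrosine kinase that drives dendritic cell development, had 450 reads in Clp1 knockdown and 1094 in Ctr. Its level in the Clp1 knockdown library was 31.6% of that in Ctr (log2 ratio -1.66, -1.82 to -1.50). Itgax and Flt3 thus both fell, with intervals that did not overlap, and the Itgax level per kb was 0.0787 of the Flt3 level in Clp1 knockdown and 0.267 in Ctr.

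Zbtb46 (NM_028125; chromosome 2, 181122467 to 181194131, minus strand) encodes a zinc finger transcription factor of conventional dendritic cells that endothelial cells also express. It had 1100 reads in the Clp1 knockdown library and 1285 in Ctr, a log2 ratio of -0.60 (-0.72 to -0.49) that did not reach 2-fold. A shorter transcript of the gene (NM_027656) had 941 reads in Clp1 knockdown and 818 in Ctr, a log2 ratio of -0.18 (-0.31 to -0.04), so the isoforms gave intervals that did not overlap. With the reads of both transcripts summed the ratio was -0.42. Reads in exons that both transcripts hold count for each, so these values are not independent and the sum can hold such reads repeatedly. Endothelial markers moved in the same direction and further, as given with the other cell types.

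Among the cDC1 genes, the surface receptors went in opposite directions. Xcr1 (NM_011798; chromosome 9, 123761436 to 123771246, minus strand), the receptor for the chemokine Xcl1, had 226 reads in the Clp1 knockdown library and 38 in Ctr. Its level was 44.5 scaled reads per kb (38.9 to 50.7) in Clp1 knockdown and 9.73 (6.89 to 13.4) in Ctr, which made it 4.57-fold higher. Clec9a (NM_001205363; chromosome 6, 129358880 to 129374780, plus strand), a C-type lectin that binds actin filaments exposed on dead cells, had 13 reads in Clp1 knockdown and 47 in Ctr. Its log2 ratio was -2.23 with a wide interval (-3.24 to -1.32), and -2.93 (-4.23 to -1.84) with reads summed over the parts of transcript NM_172732. Annotated exons of Clec9a share 184 bp with exons of Clec1b on the same strand. Clec1b had 86 reads in Clp1 knockdown and 96 in Ctr. Whether reads of Clec1b entered the counts of Clec9a was not tested. Per kb, Xcr1 stood at 5.87 times the Clec9a level in the Clp1 knockdown library and at 0.210 of it in Ctr.

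Of the cDC1 transcription factors, Batf3 was called lower, with an interval inside that of Clec9a, and Irf8 did not reach 2-fold. Batf3 (NM_030060; chromosome 1, 192922293 to 192932822, plus strand), an AP-1 family factor needed for cDC1 development, had 152 reads in the Clp1 knockdown library and 371 in Ctr. It fell to 31.5% of the Ctr level (log2 ratio -1.67, -1.95 to -1.39), and to a log2 ratio of -1.16 with the GC trend subtracted. Irf8 (NM_008320; chromosome 8, 123260258 to 123280594, plus strand), an interferon regulatory factor of cDC1, pDC, monocytes and B cells, was by far the most abundant, with 12040 reads in Clp1 knockdown and 10796 in Ctr. Its scaled level per kb was 3735 (3669 to 3803) in Clp1 knockdown and 4354 (4272 to 4437) in Ctr, a log2 ratio of -0.22 (-0.26 to -0.18). The Irf8 level per kb was 19.9 times that of Batf3 in Clp1 knockdown and 7.33 times in Ctr.

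Sirpa (NM_007547; chromosome 2, 129418571 to 129457964, plus strand), the inhibitory receptor for Cd47 that cDC2 share with macrophages and neurons, had 658 reads in the Clp1 knockdown library and 1949 in Ctr. It fell to 26.0% of the Ctr level (log2 ratio -1.95, -2.07 to -1.82). The shorter transcript NM_001177647 fell as well, with 583 reads in Clp1 knockdown and 1614 in Ctr (-1.85, -1.99 to -1.71). The reads counted for the longer transcript but not for the shorter one, over 654 additional bp, numbered 75 in Clp1 knockdown and 335 in Ctr. Their ratio of -2.54 (-2.92 to -2.17) lay below that of the shorter transcript. The related Sirp-family genes had few reads. Sirpb1a had 0 in Clp1 knockdown and 40 in Ctr, and Sirpb1b had 0 in Clp1 knockdown and 26 in Ctr. Sirpb1c had 2 in Clp1 knockdown and 38 in Ctr. Reads that such similar genes share cannot be told apart in these counts.

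Siglech (NM_178706; chromosome 7, 63023548 to 63034295, plus strand), a sialic acid-binding lectin of pDC that signals through the adaptor Tyrobp, had 40 reads in the Clp1 knockdown library and 32 in Ctr. Its log2 ratio was -0.06 (-0.76 to 0.66), so no difference was detectable at this depth, which leaves room for any ratio within that interval.

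The order of the levels differed between the libraries. In the Clp1 knockdown library the order per kb was Irf8, Zbtb46, Batf3, Sirpa, Flt3, Xcr1, Siglech, Itgax and Clec9a, and among neighbours only Siglech and Itgax, and Itgax and Clec9a, had overlapping intervals. In Ctr it was Irf8, Batf3, Zbtb46, Sirpa, Flt3, Itgax, Clec9a, Siglech and Xcr1, with overlap between Batf3 and Zbtb46, Zbtb46 and Sirpa, and Siglech and Xcr1. Among 17832 genes ranked by level per kb, Xcr1 stood at percentile 29.2 in Clp1 knockdown and 14.3 in Ctr, and Itgax at percentile 10.2 in Clp1 knockdown and 40.0 in Ctr. Sirpa stood at 50.6 in Clp1 knockdown and 77.8 in Ctr, Batf3 at 55.9 in Clp1 knockdown and 79.0 in Ctr, Flt3 at 44.9 in Clp1 knockdown and 68.1 in Ctr, and Clec9a at 9.39 in Clp1 knockdown and 28.4 in Ctr. The percentiles of the other genes differed less, with Zbtb46 at 70.4 in Clp1 knockdown and 78.3 in Ctr, Siglech at 15.0 in Clp1 knockdown and 17.1 in Ctr, and Irf8 at 97.2 in Clp1 knockdown and 97.5 in Ctr. Xcr1 was thus the gene with the higher percentile in the Clp1 knockdown library, and the other 8 had the lower one there. The Sirpa level was 3.25 times the Xcr1 level in the Clp1 knockdown library and 57.2 times in Ctr. The levels spanned 492-fold from lowest to highest in Clp1 knockdown and 448-fold in Ctr. The length of the Clec9a transcript NM_172732 (1156 bp; 10 reads in Clp1 knockdown and 47 in Ctr) stood for Clec9a in all values per kb and per exon, because NM_001205363 had no length in the table of transcript parts.

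**Figure D2:**
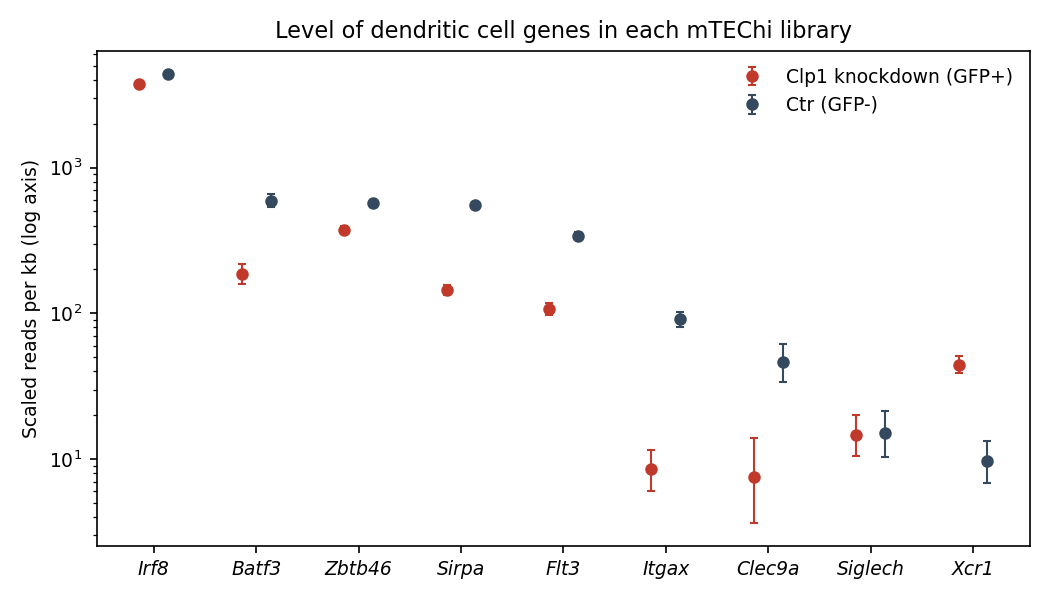
Scaled reads per kb of transcript (log axis) of the 9 genes in the Clp1 knockdown and Ctr libraries, with 95% counting intervals. Irf8 stands at 3735 in Clp1 knockdown and 4354 in Ctr, above the other genes in both libraries, and Xcr1 is the gene with its Clp1 knockdown point clearly above its Ctr point.

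Irf8 set the summed level of the genes. The 9 genes together had 12908 scaled reads in the Clp1 knockdown library and 18166 in Ctr, a log2 ratio of -0.49. Irf8 made up 81.8% of that sum in Clp1 knockdown and 67.8% in Ctr. The 8 genes without Irf8 summed to 2349 scaled reads in Clp1 knockdown and 5857 in Ctr, a log2 ratio of -1.32.

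The ratio of Ptprc, which all leukocytes carry, was -1.30 (-1.41 to -1.19). The intervals of 3 genes lay below that of Ptprc (Itgax, Flt3 and Sirpa), those of 4 lay above it (Xcr1, Zbtb46, Irf8 and Siglech), and those of Clec9a and Batf3 overlapped it. That split depends on the gene taken as reference, since the 12 pan-leukocyte genes ran from -3.95 (Cd37) to 0.86 (Lcp1). The median over all genes, 0.03, also lay above the interval of Ptprc, and the share of all genes on each side was not computed.

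The other genes of each subset are given by list, and whether their reads came from dendritic cells was not tested. Beside the gene with the most reads and those with the highest and lowest ratio, the called genes of each list, Gcsam and Clec4a4 are named, a choice made after their values were seen. Of 13 other cDC1 genes, 4 were called higher, 3 lower and 6 were not called, with a median log2 ratio of 0.20. Rab7b, a small GTPase of endosomes, had 421 reads in Clp1 knockdown and 12 in Ctr (log2 ratio 4.75, 3.93 to 5.72). Tlr3, the sensor of double-stranded RNA, had 907 reads in Clp1 knockdown and 154 in Ctr (2.18), and the adhesion molecule Cadm1 had 1797 in Clp1 knockdown and 495 in Ctr (1.48). Tlr11 had 38 reads in Clp1 knockdown and 13 in Ctr (1.17), and was no longer called with the GC trend subtracted (0.86). Gcsam was not called (0.76). With reads beyond the most proximal poly(A) site left out, its ratio was 4.75 (3.16 to 7.05), and 5 of the 13 genes were called higher. Lower were Wdfy4, which acts in cross-presentation, with 91 reads in Clp1 knockdown and 616 in Ctr (-3.14), the integrin subunit Itgae (-1.90) and the endocytic receptor Ly75 (-1.33). Id2, the cDC1 regulator with the most reads, had a log2 ratio of 0.08.

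Of 10 other cDC2 genes with enough reads, 6 were called lower and none of the 10 higher, with a median of -2.01. Cd300a, an inhibitory receptor, had 15 reads in Clp1 knockdown and 457 in Ctr (log2 ratio -5.31). The lectins Mgl2 (-3.50), Cd209a (-2.72) and Clec4a2 (-2.47) and the integrin subunit Itgam (-1.60) were also lower. So was the lectin Clec10a, with 4 reads in Clp1 knockdown and 19 in Ctr (-2.63, -4.64 to -1.04). Irf4, the transcription factor with the most reads on that list, had a log2 ratio of -0.10, and Clec12a, the highest, 0.56. Clec4a4, with 1 read in each library, had too few reads for a call.

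Of 12 other pDC genes, 4 were called lower and 4 higher, with a median of -0.32. The endosomal sensors of nucleic acids went opposite ways. Tlr7 had 46 reads in Clp1 knockdown and 0 in Ctr, and the counting interval of its log2 ratio began at 3.20. Set against the floor of 3 reads in the Ctr library, Tlr7 was 11.8-fold higher, a value that is not a lower bound. Tlr9 had 26 reads in Clp1 knockdown and 85 in Ctr (log2 ratio -2.09). Pacsin1 (2.96) and Klk1 (2.21) were also higher, as was Cox6a2, with 22 reads in Clp1 knockdown and 3 in Ctr (2.50, 0.76 to 4.88). Runx2 (-1.44), Bcl11a (-1.25) and the chemokine receptor Ccr9 (-1.20) were lower. The call of Bcl11a was lost when the reads of all its transcripts were summed (-0.97), a sum that can hold shared reads repeatedly. Spib, an Ets factor that medullary epithelium also expresses, had the most reads and a log2 ratio of -0.16. Over these 3 subset lists, 13 of 35 genes were called lower and 8 higher.

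Genes of activated, migratory dendritic cells gave 5 lower and 0 higher calls among 10, with a median of -0.93. The chemokine Ccl17 had 142 reads in Clp1 knockdown and 1233 in Ctr (log2 ratio -3.50), and Ccl22 (-1.76), the actin-bundling protein Fscn1 (-1.54), the chemokine receptor Ccr7 (-1.37) and Tnfrsf4 (-1.08) were lower as well, the last not with the GC trend subtracted (-0.78). Il4i1, the gene with the most reads and the highest ratio, stood at 0.11. Several genes of that list are also expressed by mTEChi. Of 9 lineage regulators and growth factor receptors, 3 were called lower, namely Zeb2 (-2.11), Bcl6 (-1.13) and Csf2rb (-1.11), the last not with the GC trend subtracted (-0.90). Csf1r was highest at 0.69 and Stat3 had the most reads (0.31).

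The ligands of these receptors were set beside them. Xcl1 had 178 reads in the Clp1 knockdown library and 61 in Ctr (log2 ratio 1.17, 0.74 to 1.61), in the same direction as its receptor Xcr1. With the GC trend subtracted, the ratio of Xcl1 was 0.89 and no longer reached 2-fold. Flt3l, the ligand of Flt3, had 436 reads in Clp1 knockdown and 312 in Ctr (0.10, -0.11 to 0.32), and Cd47, the ligand of Sirpa, had 7145 in Clp1 knockdown and 4578 in Ctr (0.26, 0.21 to 0.32), neither reaching 2-fold while their receptors were called lower. Of the 10 ligands, 3 were called higher and 0 lower, the others being Csf2 (1.19), lost with the GC trend subtracted (0.86), and Ccl21a (2.58), a ligand of Ccr7 with near-identical copies in the genome. Cx3cl1 was lowest at -0.87.

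Of 7 genes that were binding or signalling partners, or AP-1 family relatives of Batf3, 3 were called lower and 0 higher. Itgb2, the subunit that pairs with Itgax, had 449 reads in Clp1 knockdown and 952 in Ctr (log2 ratio -1.46, -1.63 to -1.30), well above the ratio of Itgax. Tyrobp, the adaptor of Siglech, had 362 reads in Clp1 knockdown and 657 in Ctr (-1.24, -1.43 to -1.05), and its call was lost with the GC trend subtracted (-0.91). Batf2, an AP-1 family relative of Batf3, had 87 reads in Clp1 knockdown and 238 in Ctr (-1.83), and Batf, another relative, 479 in Clp1 knockdown and 534 in Ctr (-0.54). The phosphatases that bind Sirpa did not reach 2-fold, at -0.35 for Ptpn6 and 0.24 for Ptpn11, and neither did the kinase Syk (-0.56).

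**Figure D3:**
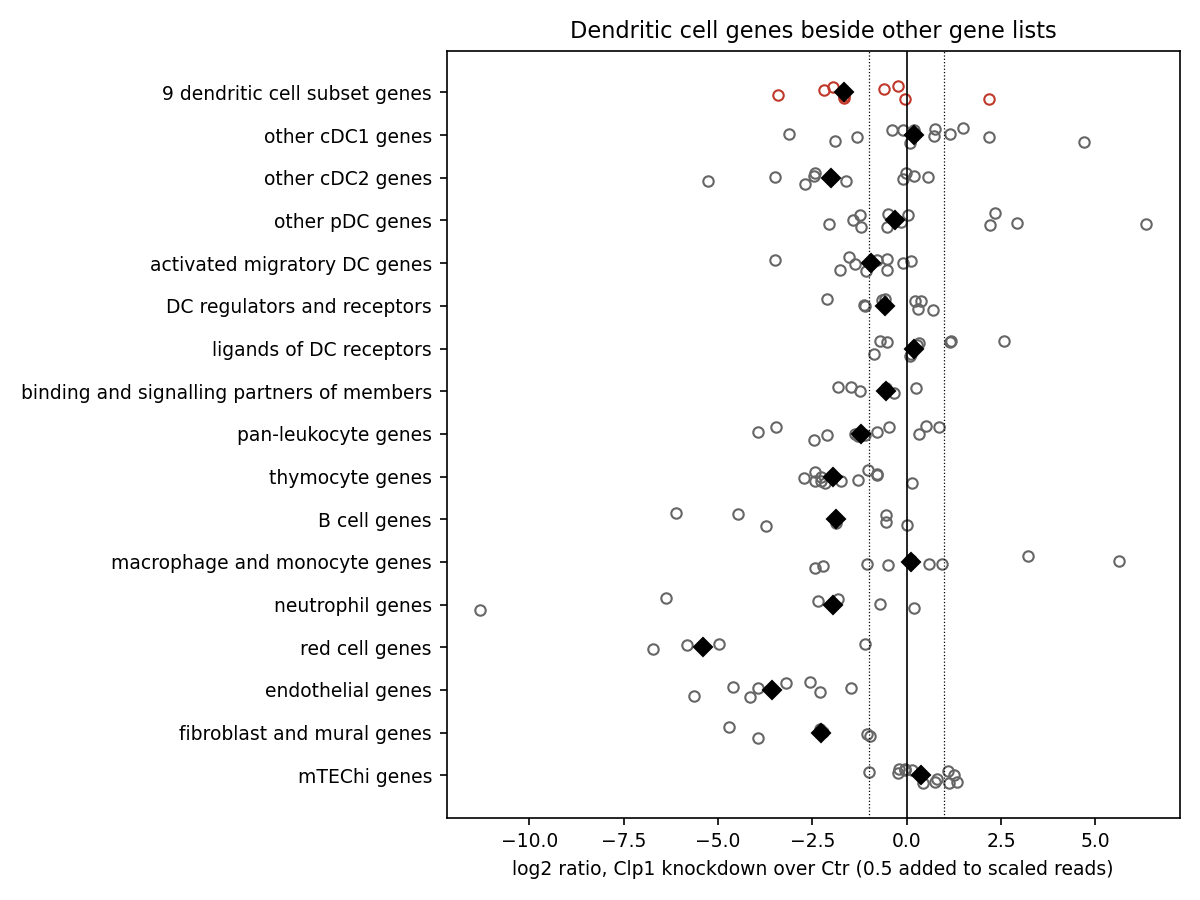
Log2 ratio of Clp1 knockdown over Ctr (x axis, 0.5 added to scaled reads) for each gene of the 9 and of 16 other lists, with a diamond at each list's median and dotted lines at 2-fold. The diamond of the 9 genes stands at -1.66, that of the other cDC2 genes at -2.01 and that of the other cDC1 genes at 0.20.

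Markers of other thymic cells, of which thymocytes, B cells, neutrophils and macrophages carry CD45 and, like dendritic cells, fall outside the gate, also differed between the libraries. Their part in the values of the 9 genes was not tested. Thymocyte genes summed to 4987 scaled reads in Clp1 knockdown against 17133 in Ctr, with 9 of 12 called lower, and B cell genes to 968 in Clp1 knockdown against 2104 in Ctr, with 4 of 7 called lower. Neutrophil genes summed to 7383 in Clp1 knockdown against 17981 in Ctr (5 of 7 called lower), and red cell genes to 2072 in Clp1 knockdown against 62036 in Ctr (4 of 4). Endothelial genes summed to 2386 in Clp1 knockdown against 22051 in Ctr (8 of 8 called lower), and fibroblast and mural genes to 4210 in Clp1 knockdown against 14362 in Ctr (5 of 6). Pan-leukocyte genes summed to 62327 in Clp1 knockdown and 81341 in Ctr, with 7 of 12 called lower, and ran from Cd37 (log2 ratio -3.95) to Lcp1 (0.86), with Laptm5, the most abundant, at -0.47. Only the sum of the macrophage and monocyte genes was higher, at 18898 in Clp1 knockdown and 13858 in Ctr. Most of that sum was Lyz2, with 13893 scaled reads in Clp1 knockdown and 9168 in Ctr. Of the macrophage and monocyte genes, 3 of 10 were called lower and 2 higher. Mrc1, the mannose receptor, had 728 reads in Clp1 knockdown and 11 in Ctr (5.67). Lyz2, the macrophage gene with the most reads, stood at 0.60 and Ccr2, the lowest, at -2.43.

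Within these lists the log2 ratios varied widely. Elane, the neutrophil elastase, had 0 reads in Clp1 knockdown and 1109 in Ctr, and the counting interval of its log2 ratio ended at -8.61. Set against the floor of 3 reads in the Clp1 knockdown library, Elane was 481-fold lower, a value that is not a bound. The calprotectin subunits S100a8, the neutrophil gene with the most reads, and S100a9 stood at -0.70 and 0.21. The recombinase gene Rag1 was lowest among thymocyte genes (-2.73) and the coreceptor gene Cd4 highest (0.14), and the kinase Lck had the most reads (-2.16). Among B cell genes the ratios were lowest for Ms4a1, which encodes CD20 (-6.36, -8.65 to -4.79). Ms4a1 had 3 reads in Clp1 knockdown, at the floor, and 190 in Ctr. The ratios were highest for the transcription factor Ebf1, with 209 reads in Clp1 knockdown and 161 in Ctr before scaling (-0.002). Cd79b had the most reads (-0.54). Among endothelial genes the ratios ran from the tight junction protein Cldn5 (-5.65) to the receptor Tek (-1.46), and the adhesion molecule Pecam1 had the most reads (-4.14). The growth factor receptor Pdgfra was lowest among fibroblast and mural genes (-4.86), and the proteoglycan Dcn had both the most reads and the highest ratio (-0.97). Among red cell genes, the anion exchanger Slc4a1 was lowest (-7.36, -12.7 to -4.85), with 1 read in Clp1 knockdown, under the floor, and 126 in Ctr. The haemoglobin chain Hba-a1 had the most reads (-4.97). The highest, the haem synthesis enzyme Alas2 (-1.11), was not called with the GC trend subtracted (-0.94). Vsig4, a marker of resident macrophages, had 0 reads in both libraries.

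The deposited table of transcript parts allowed the position of reads along each gene to be compared. The share of reads in the last exon had intervals that did not overlap for 4 of the 9 genes, of which 2 were higher (Flt3 and Sirpa) and 2 lower (Clec9a and Zbtb46) in the Clp1 knockdown library. Over 16757 genes, 17.2% were apart in the higher direction and 10.5% in the lower, with median shares of 53.4% in Clp1 knockdown and 51.2% in Ctr. In Sirpa, 80.8% of reads (77.6 to 83.7) lay in the last exon in Clp1 knockdown and 66.2% (64.0 to 68.3) in Ctr, over 57.7% of the transcript length. Its earlier exons had 125 reads in Clp1 knockdown and 641 in Ctr (log2 ratio -2.74, -3.03 to -2.46) and its last exon 530 in Clp1 knockdown and 1282 in Ctr (-1.65, -1.80 to -1.51), so both fell.

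In Flt3 the last exon held few reads, 23 in Clp1 knockdown and 10 in Ctr, or 5.34% (3.41 to 7.90) in Clp1 knockdown against 0.965% (0.464 to 1.77) in Ctr, over 15.4% of the length. The fall of Flt3 was carried by its earlier exons, with a log2 ratio of -1.71 (-1.88 to -1.54), whereas the ratio of the last exon was 0.82 (-0.30 to 2.06). In Clec9a the last exon had 0 of 8 reads in Clp1 knockdown, which allows a share of up to 37.5%, and 37 of 47 in Ctr (78.7%, 64.3 to 89.3). Its earlier exons had 8 reads in Clp1 knockdown and 10 in Ctr (-0.70, -2.24 to 0.79), an interval that includes 0.

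Zbtb46 had 42.3% of reads (39.3 to 45.3) in the last exon in Clp1 knockdown and 48.8% (46.0 to 51.6) in Ctr. Itgax had 26.3% (13.4 to 43.1) in Clp1 knockdown and 19.4% (15.1 to 24.2) in Ctr, Batf3 90.3% (84.3 to 94.6) in Clp1 knockdown and 82.2% (77.7 to 86.1) in Ctr, and Siglech 15.8% (6.02 to 31.3) in Clp1 knockdown and 25.8% (11.9 to 44.6) in Ctr, all with overlapping intervals. Irf8 had 51.6% (50.7 to 52.5) in Clp1 knockdown and 50.1% (49.2 to 51.1) in Ctr. Xcr1 is nearly all last exon, which held 217 of 223 reads in Clp1 knockdown and 38 of 38 in Ctr.

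**Figure D4:**
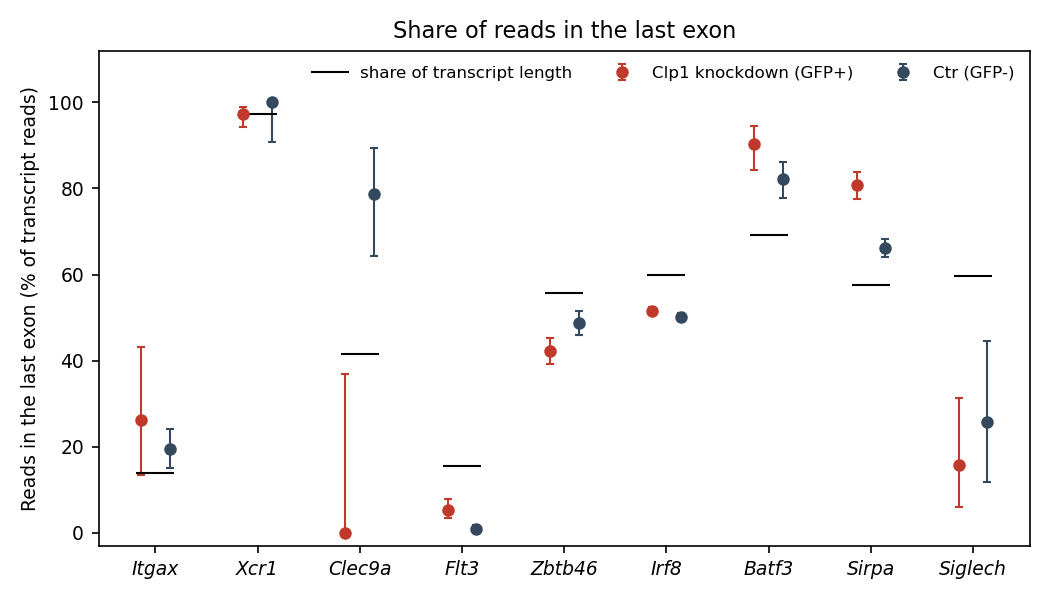
Share of each gene's reads that lay in its last exon (y axis, percent) in the Clp1 knockdown and Ctr libraries, with exact 95% intervals and a black line at the last exon's share of the transcript length. Sirpa stands at 80.8% in Clp1 knockdown and 66.2% in Ctr, and Clec9a at 0 of 8 reads in Clp1 knockdown and 78.7% in Ctr.

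The d3'UTR ratio, the read density beyond the most proximal poly(A) site over that of the upstream last exon, could be formed for 1 of the 9 genes. In Siglech the distal part (1234 bp) held 1 of 6 last-exon reads in Clp1 knockdown (ratio 0.0321) and 0 of 8 in Ctr, which allows a distal share of up to 37.5%, and both were too few for a comparison.

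The promoters of the genes are shown where short stretches matched the recognition motif of AP-1 factors, the family of Batf3. RefSeq promoter windows of the GRCm38.p6 assembly (300 bases around the start) were matched by symbol for 8 of the 9 genes, and TGANTCA, a palindrome searched on both strands, was found in those of Itgax and Zbtb46, beginning at position -56 in Itgax and -61 in Zbtb46 relative to the start. Capitals mark the match in each, 5' to 3' on the strand of the gene.
Itgax: ccacctcctcTGAGTCAcgctgacaac
Zbtb46: ccatttacctTGACTCAtttcacagca
Of 32851 promoter windows of the same length, 7.81% held that motif. The PU.1 letters GAGGAAGT (3.20% of windows), the ETS-IRF composite element (2.72%) and the interferon response element (3.44%) were searched on both strands and were in no window of the 8 genes. A match is a description of these letters and not a binding site.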

How the data were processed

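The submitters' processing notes name Bowtie 1.0.0, the mm9 build, bedtools for counting and DESeq. The authors deposited raw counts of reads contained in the exons of 30794 RefSeq transcripts and in the parts of 27567 of them, with part lengths. Their table of DESeq-normalized values, fold changes and p-values was not used. The use of strand and the treatment of duplicate and multimapping reads were not given in the sources used here.

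Symbols were matched by RefSeq identifier for 30216 transcripts. Coordinates, overlaps and GC content came from the mm9 genome with GENCODE vM1. Median-of-ratios size factors and exact intervals were computed in Python 3.11.15 with scipy 1.17.1, and TMM factors with edgeR 4.0.16 on the deposited counts. In each library a floor of 3 reads equals 2.63 (Clp1 knockdown) or 3.42 (Ctr) scaled reads. The calculations were tested on simulated Poisson counts. Such counts hold counting error only, as the intervals assume, so that test did not cover amplification or spread between libraries. The 9 genes and the 16 other lists (156 genes) were chosen with earlier results of these data known. All 9 genes were named, and of each other list the gene with the most reads, the highest and the lowest ratio, and every ligand or partner of the 9. Called genes of the dendritic cell lists, with Gcsam and Clec4a4, were named in addition, after their values were seen. On these lists Cd300c and Hbb-b1 were not matched.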

Additional observations from a re-analysis of the deposited data

How the results depend on the processing

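No paired analysis was possible because each group had 1 library, and for the same reason no library could be left out. The median log2 ratio of the 9 genes was -1.15 with a trend of the ratio on GC content subtracted (a GC value was had for 83.1% of genes with at least 10 reads and for all 9), against -1.66 as reported. Of 54 recomputed ratios of single genes, 50 moved by less than their counting interval and 0 of the called ones changed sign. The 4 that moved were Batf3 (-1.16), Irf8 (0.09) and Sirpa (-1.71) with the GC trend and Zbtb46 (-0.42) with all transcripts summed. Xcr1 was 1.77 to 2.20, Itgax -3.44 to -3.36 and Clec9a -2.93 to -2.23 over all settings. The count of genes called lower was 5 except for 4 with a minimum of 100 reads and 6 at 1.5-fold, and 1 was called higher throughout. Counts over all genes and over the other lists were recomputed after seeing the data. All genes called lower numbered 2396 at 3-fold (3647 as reported), and those called higher 2609 with a minimum of 100 reads (4065). Of 352 list counts, 21 moved by more than 1.5 times. Siglech, Clec9a and Xcr1 rest on the fewest reads.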
